A study of Oryza sativa with 12 samples.

Results

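The measurements described here compare the shoots of rice that overexpressed *OsERF106MZ* (OE) with shoots of the parent cultivar TNG67 under NaCl. They rest on 6 of the 12 arrays of the series, chosen by their titles, 3 of OE and 3 of TNG67 treated with 150 mM NaCl. The other 6 arrays, 3 of each genotype at 0 mM NaCl, were used for the spread between arrays and for a second comparison. Seedlings were 7 days old when moved to the medium with or without NaCl and were harvested after 1 day, at 8 days. The transgene was driven by the constitutive CaMV 35S promoter, so its product is not limited to the cells in which the native gene is active. The study made lines with the coding sequence alone and with a GFP fusion, and the labels do not say which was put on the arrays. No probe was paired here with *OsERF106MZ*, so its overexpression was not checked on these arrays, and no green leaf or root marker of the lists used was paired with a probe.

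AP2/ERF proteins are plant transcription factors with a DNA-binding AP2 domain, and many of them take part in responses to salinity, drought and cold. *OsERF106MZ* belongs to the ERF group of this family. High NaCl exposes a seedling to osmotic stress within hours and to the build-up of Na+ in its leaves over days. Rice shoots answer with the hormone abscisic acid (ABA), whose signal reaches the genome through bZIP, NAC and homeodomain transcription factors, and with Na+ carriers of the HKT family.

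A probe's value is its normalized signal as log2 intensity. Of 42477 probes on 43734 spots, 37144 were tested, those well above background on no fewer than 3 of the 12 arrays. Replicates 1 and 3 of TNG67 were on slide 1 and those of OE on slide 2, while replicate 2 of all 4 groups shared slide 3, which was scanned in another session. Genotypes therefore meet within a slide only on slide 3, with 1 array each, and elsewhere slide and genotype cannot be told apart. The study's own table numbers replicates 1 and 3 as the same sample and replicate 2 as another, whereas the labels speak of biological repeats, so each n below counts arrays and p-values measure the spread between arrays, part of which may be technical.

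Replicate 2 of NaCl-treated TNG67 stood apart from its group. Across tested probes it correlated with TNG67 replicates 1 and 3 at a Pearson's r of 0.965 and 0.966, while those 2 arrays correlated with each other at 0.994. With OE replicate 2, on the same slide, its r was 0.98. NaCl raised 2296 probes in OE, and their median log2 difference from the mean of untreated TNG67 was 1.86, 1.64 and 1.89 on OE replicates 1, 2 and 3, and 0.93, 1.52 and 1.11 on TNG67 replicates 1, 2 and 3. Against the untreated TNG67 array of the same slide and number, these TNG67 medians were 0.99, 1.48 and 1.12. On these probes the response of TNG67 replicate 2 was nearer to that of the OE arrays than the responses of TNG67 replicates 1 and 3 were. The probes were chosen by the OE arrays, with replicate 2 on slide 3 among them. That choice favours high OE medians, so the values are a description. Its label was checked on 176 probes that passed with a difference over 8-fold between the genotypes at 0 mM NaCl, a choice that used no NaCl-treated array. Of these, 41, 5 and 38 were nearer to the mean of untreated TNG67 than to that of untreated OE on OE replicates 1, 2 and 3, and 100, 92 and 103 on TNG67 replicates 1, 2 and 3. By this count the array was closer to the other TNG67 arrays than to any OE array, though its 92 probes were only 52.3% of the 176. The other TNG67 arrays reached 56.8% and 58.5%, so the check separates the genotypes weakly. Distances between NaCl-treated arrays were not measured on these probes. What sets it apart elsewhere was not tested, and every TNG67 mean at 150 mM NaCl includes it as labelled. Results that this array decides are given with and without it.

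At 150 mM NaCl, 1244 of the 37144 probes (3.35%) differed between OE and TNG67 by more than 2-fold at a Benjamini-Hochberg adjusted p under 0.05 in limma. Of these, 717 were upregulated in OE (1.93% of those tested) and 527 were downregulated (1.42%). The median log2 fold change was 1.6 among upregulated probes, and 253 of them (35.3%) changed by more than 4-fold. It was -1.33 among downregulated probes, and 70 of them (13.3%) changed by more than 4-fold. With replicates 1 and 3 of a group averaged, since the study numbers them as a single sample, 74 probes passed (56 up and 18 down), and with the 6 NaCl-treated arrays alone 638 passed (360 and 278). A change over 16-fold was found for 25 upregulated and 2 downregulated probes. The OE arrays did not overlap the TNG67 arrays for 712 of the upregulated and 526 of the downregulated probes, against 23.4% of all tested probes. The probes were chosen by a test on these same arrays, which favours such separation, so the counts are a description. Without TNG67 replicate 2, 2605 probes passed, among them 1139 of the 1244 in the same direction. The number was 718 without OE replicate 1, 1423 without OE replicate 2, 736 without OE replicate 3, 689 without TNG67 replicate 1 and 815 without TNG67 replicate 3. It thus rose without either slide 3 array and fell without any other NaCl-treated array. Within slide 3 alone there is 1 array per genotype and no test.

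In the limma fit used here, the direction of the changes moved with the level of the signal. Tested probes without a missing value were divided by mean signal into 4 groups of nearly equal size. In the dimmest group 392 passed, of which 269 (68.6%) were upregulated. The share upregulated was 61.7% of 431 in the next group, 52.7% of 241 in the one after it and 30.7% of 179 in the brightest. Bright probes that passed were thus more often lower in OE, and dim ones more often higher. This split by signal was made for that fit only. Over all passing probes, the share upregulated was 57.6% in that fit, 52.9% with the authors' normalized values and 49.5% with slide as a fixed term.

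Loci could be given to 1489 tested probes, through the study's own lists of differentially expressed genes. Those lists were made from these arrays, so 551 of the 1489 (37%) passed, 328 upregulated (22%) and 223 downregulated (15%), and nothing is read from these shares. The tables used pair the loci below with no product name, so they are described by locus.

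The largest upregulation among named loci was that of LOC_Os03g02470. Its signal was 11.2, 10.56 and 11.24 on OE replicates 1, 2 and 3, and 2.65, 3.74 and 1.84 on TNG67 replicates 1, 2 and 3. No TNG67 array was well above background, so the transcript was measured in OE only, and the fold has only a lower limit. Setting a TNG67 array at its lowest signal that counts as above background, where the probe itself was dimmer, OE was at least 155.7-fold higher (adjusted p = 3.62e-06, limma). Where the probe was brighter than that lowest signal, its own signal was kept, though not well above background. Every limit given below follows this rule and depends on the background correction. A probe without a locus, CUST_31880, had 11.19, 10.63 and 11.25 in OE and 3.61, 2.78 and 3.01 in TNG67, at least 149.9-fold higher in OE (adjusted p = 5.18e-07). Whether both probes read the same transcript is not given in the tables used.

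LOC_Os03g25490 was measured in both genotypes. It had 12.59, 11.7 and 12.48 in OE, against 5.8, 6.36 and 5.61 in TNG67, or 6.33 on the log2 scale (SE 0.35, adjusted p = 8.01e-06). The lowest OE array was thus 5.34 above the highest TNG67 array, which were the 2 arrays of slide 3. LOC_Os07g32710 had 12.52, 12.66 and 12.44 in OE, against 8.11, 6.52 and 8.21 in TNG67, or 4.93 on the log2 scale (SE 0.42, adjusted p = 0.000155). Here it was TNG67 replicate 2 that lay lowest, so that the difference within slide 3 was the larger one, at 6.15.

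LOC_Os11g40530 had 9.48, 9.05 and 10.25 in OE, against 3.93, 3.85 and 4.05 in TNG67, where it was not well above background. This was at least 43.7-fold higher (adjusted p = 1.59e-05). LOC_Os04g02490 had 10.37, 10.35 and 9.62 in OE and 4.12, 4.54 and 4.8 in TNG67, at least 47.95-fold higher by that rule (adjusted p = 5.18e-07). This limit is close to the fitted 49.5-fold, since most TNG67 signals were kept as they stood. Both were thus read as present in OE shoots and at background in TNG67 shoots. A similar picture was given by LOC_Os06g15430, at 7.85, 8.34 and 8.02 in OE and at least 17.38-fold higher, and by LOC_Os11g42430, at 8.1, 7.06 and 8.07 in OE and at least 16.16-fold higher (adjusted p = 0.000864 for LOC_Os06g15430 and 0.00157 for LOC_Os11g42430).

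The remaining 3 of the 10 largest increases were well above background on 1 or 2 TNG67 arrays. LOC_Os07g26100 had 9.88, 10.51 and 9.58 in OE, against 4.7, 4.87 and 4.34 in TNG67 (log2 fold change 5.35, SE 0.23, adjusted p = 1.1e-06). LOC_Os05g41050 had 10.17, 9.87 and 10.04 in OE, against 4.59, 5.43 and 5.08 in TNG67 (log2 fold change 4.99, SE 0.23, adjusted p = 1.53e-06). LOC_Os02g15350 had 9.21, 7.91 and 8.97 in OE, against 4.82, 4.22 and 3.2 in TNG67 (log2 fold change 4.62, SE 0.44, adjusted p = 0.000329). In each case the lowest OE array was far above the highest TNG67 array, though separated arrays were a condition of the choice. All 10 passed in each of the 12 fits that left out an array, and with slide as a term of the fit. With replicates 1 and 3 averaged, 8 of the 10 passed, and with the methods' t-test, adjusted over all probes, 0 of the 10 did, while 11 probes passed in all and 1435 had an unadjusted p under 0.05 with a change over 2-fold.

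**Figure D1:**
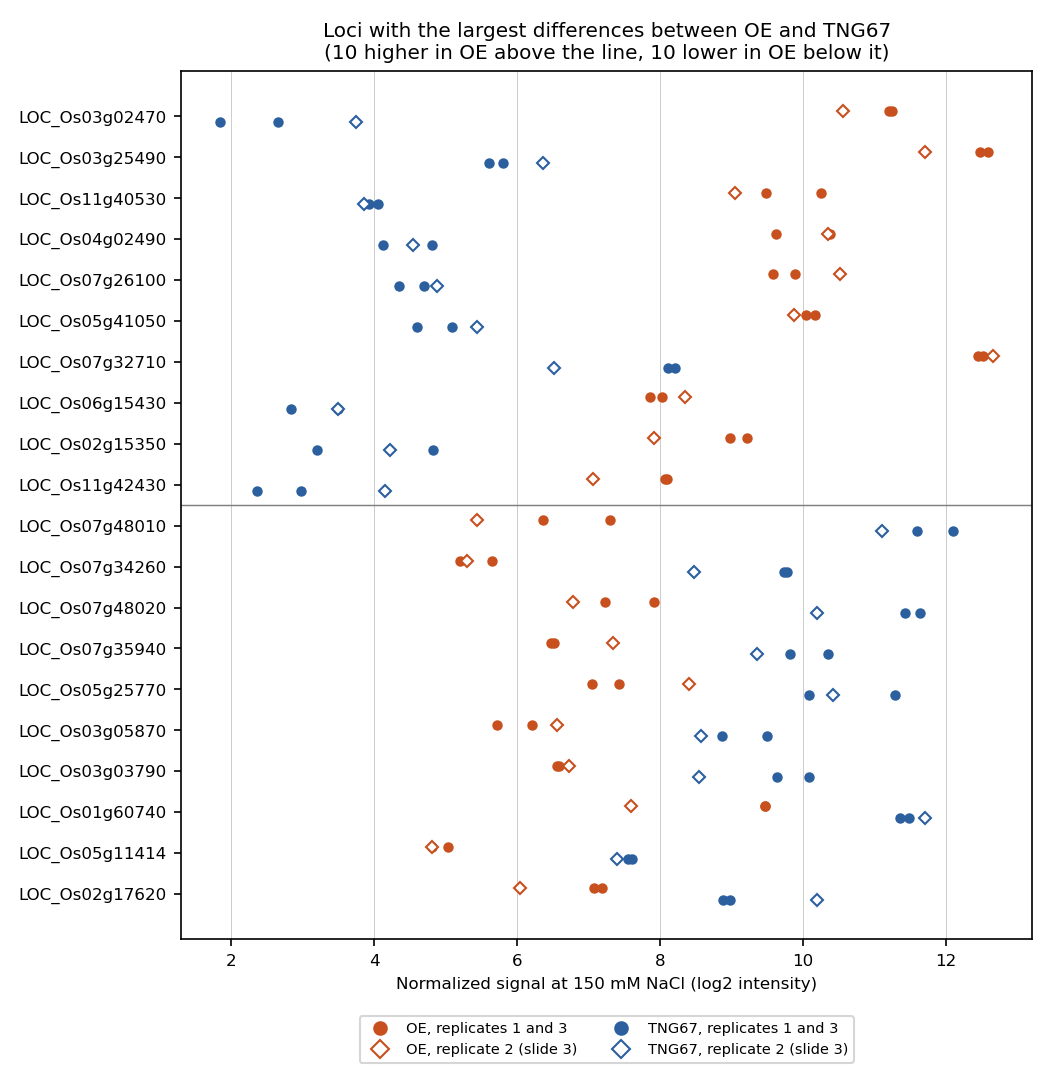
Normalized signal (x axis, log2 intensity) of each array at 150 mM NaCl for the 10 named loci with the largest increase and the 10 with the largest decrease in OE (rows). Orange points are OE and blue points TNG67, with open diamonds for replicate 2. Only loci whose 3 OE arrays lay on one side of the 3 TNG67 arrays, with the same direction within slide 3, were eligible. The separation in every row was thus set by the choice.

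Among downregulated loci, LOC_Os07g48010 changed most. It had 7.3, 5.43 and 6.36 in OE, against 11.59, 11.1 and 12.09 in TNG67, or -5.23 on the log2 scale (SE 0.4, adjusted p = 9.18e-05). The locus next to it by number, LOC_Os07g48020, had 7.91, 6.78 and 7.23 in OE, against 11.42, 10.2 and 11.63 in TNG67 (log2 fold change -3.78, SE 0.37, adjusted p = 0.000398). Transcripts of both neighbours were well above background on all 6 arrays, so that these are measured folds and not limits. Both loci were inferred from a listed difference, as described below, and not given by probe name. CUST_15707, the probe without a locus that fell most, had 7.62, 5.64 and 6.41 in OE, against 11.88, 11.2 and 12.25 in TNG67 (log2 fold change -5.22, adjusted p = 0.000138).

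LOC_Os07g34260 had 5.64, 5.3 and 5.2 in OE, against 9.77, 8.47 and 9.73 in TNG67 (log2 fold change -3.94, SE 0.32, adjusted p = 0.000118). LOC_Os07g35940 had 6.51, 7.34 and 6.47 in OE, against 10.34, 9.36 and 9.82 in TNG67 (log2 fold change -3.06, SE 0.52, adjusted p = 0.00759). At both loci the difference was smaller within slide 3, at -3.17 for LOC_Os07g34260 and -2.02 for LOC_Os07g35940. LOC_Os05g25770 had 7.05, 8.4 and 7.42 in OE, against 11.29, 10.42 and 10.08 in TNG67 (log2 fold change -2.98, SE 0.56, adjusted p = 0.0121). LOC_Os03g05870 had 5.72, 6.55 and 6.2 in OE, against 9.5, 8.57 and 8.87 in TNG67 (log2 fold change -2.82, SE 0.36, adjusted p = 0.00167). LOC_Os03g03790 had 6.55, 6.72 and 6.59 in OE, against 10.08, 8.54 and 9.63 in TNG67 (log2 fold change -2.8, SE 0.51, adjusted p = 0.0105). In these 3 as well, the slide 3 arrays differed less than the fit gives, by -2.03, -2.02 and -1.83.

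At the remaining 3 loci the difference within slide 3 was at least as large as that of the fit or close to it. LOC_Os01g60740 had 9.46, 7.59 and 9.46 in OE, against 11.36, 11.7 and 11.48 in TNG67 (log2 fold change -2.67, SE 0.61, adjusted p = 0.0284), with -4.11 within slide 3. LOC_Os02g17620 had 7.18, 6.04 and 7.07 in OE, against 8.88, 10.19 and 8.98 in TNG67 (log2 fold change -2.59, SE 0.4, adjusted p = 0.00476), with -4.16 within slide 3. LOC_Os05g11414 had 5.03, 4.8 and 4.8 in OE, against 7.61, 7.4 and 7.55 in TNG67 (log2 fold change -2.64, SE 0.22, adjusted p = 0.000123), with the smallest SE of the 10. With slide as a term of the fit, 9 of the 10 passed, and LOC_Os07g35940 did not (-1.63). With replicates 1 and 3 averaged 3 of the 10 passed, and with the methods' t-test 1 did. Passing with every array left out in turn held for 7 of the 10. LOC_Os05g25770 failed without TNG67 replicate 1, OE replicate 1 or OE replicate 3, LOC_Os03g03790 failed without TNG67 replicate 1, and LOC_Os01g60740 failed without any one of TNG67 replicates 1 and 3 and the 3 OE arrays. In the fits where they failed, these 3 loci had log2 fold changes between -3.03 and -2.05.

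Transcripts read in a single genotype were counted over all probes. On all 3 OE arrays and on no TNG67 array, 58 probes were well above background, and 41 of them (70.7%) passed as upregulated. In the other direction there were 41 probes, of which 9 (22%) passed as downregulated. Of all tested probes, 1.93% passed as upregulated and 1.42% as downregulated. The rule that picks such probes uses the same arrays, so these shares are a description. On the OE side the lower limit was above 10-fold for 11 probes and had a median of 2.91-fold. On the TNG67 side no limit reached 10-fold and the median was 1.81-fold. The 4 named loci of that side with the largest limits were LOC_Os02g19470, LOC_Os09g19229, LOC_Os10g36160 and LOC_Os10g05490, with limits of 3.891-, 3.276-, 3.157- and 2.992-fold lower in OE. With an offset of 50 in the background correction, the log2 fold changes of LOC_Os02g19470, LOC_Os09g19229 and LOC_Os10g05490 were -0.95, -0.95 and -0.71, all under 2-fold. These limits thus hold only for the background correction used. LOC_Os02g19470 had 4.62, 4.26 and 4.6 in OE, against 6.97, 5.98 and 6.41 in TNG67 (adjusted p = 0.00161). LOC_Os10g36160 did not pass (adjusted p = 0.0921), though it did without TNG67 replicate 2. At LOC_Os09g19229 (adjusted p = 0.0301) the difference within slide 3 was -0.27, and the call was lost without any one of replicates 1 and 3 of either genotype.

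Within slide 3, where both genotypes were hybridized side by side, 713 of the 717 upregulated probes were higher in OE and 526 of the 527 downregulated probes were lower. The difference there was over 2-fold in the same direction for 446 (62.2%) and 329 (62.4%) of them. Among all tested probes, 6.68% were over 2-fold apart within slide 3 in either direction. The median log2 difference of the upregulated probes was 1.21 within slide 3 and 1.84 between slides 2 and 1, and that of the downregulated probes was -1.21 and -1.44. Since the slide 3 arrays took part in the choice of these probes, the shares do not measure repeatability. Of the 4 upregulated probes that were not higher within slide 3 and the 1 downregulated probe that was not lower, none is named here.

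**Figure D2:**
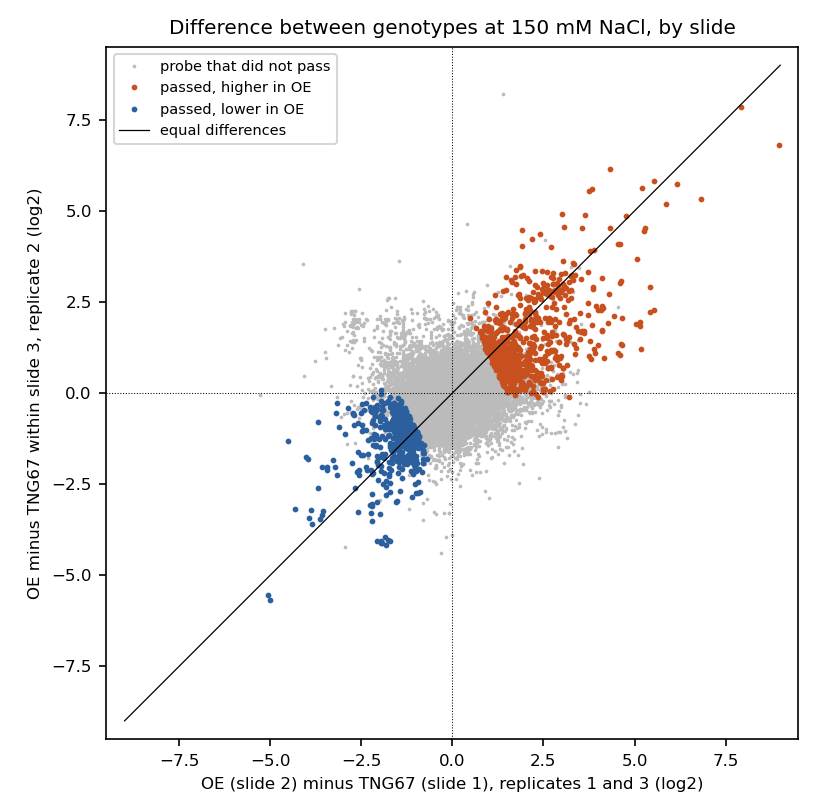
Difference between OE and TNG67 at 150 mM NaCl for each tested probe (log2), between slides 2 and 1 on the x axis and within slide 3 on the y axis. Orange points passed as higher in OE, blue points passed as lower, grey points did not pass, and most of the passing points keep their sign on the y axis while many lie closer to 0 there than the line of equal differences.

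Another 208 probes were over 2-fold lower in OE between slides 2 and 1 but over 2-fold higher in OE within slide 3, and 70 showed the opposite pattern. None of these 278 probes passed in limma. For all 208, TNG67 replicate 2 lay below TNG67 replicates 1 and 3, by a median log2 difference of -2.3 from their mean. OE replicate 2 lay above both other OE arrays in 176 of them, and its median difference from their mean was 0.96 over all 208. For the 70, TNG67 replicate 2 lay above the mean of the other 2 TNG67 arrays by a median of 2.33, and OE replicate 2 lay below that of the other 2 OE arrays by a median of -0.52. These probes were chosen for opposite differences by slide, which by itself favours such deviations of replicate 2, so the values are a description. Of the 278, 7 had a locus.

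The study named 5 stress regulators and the carrier *OsHKT1.1* for which a probe was found, and 2 of these 6 passed (33.3% against 37% of all probes with a locus). The median log2 fold change of the 6 was 1.3, and that over all tested probes was -0.02. The regulators were picked by the study from these arrays, so the count is no independent evidence of their direction. The study also measured these regulators by qPCR, with and without NaCl, on RNA of the shoots used for the arrays. It reported the same directions by qPCR as in its array data. For *OsHKT1.1*, its qPCR on shoots treated for longer showed no obvious difference between the genotypes, with or without NaCl. The ion transport genes that it reported as changed were *OsHKT1.3* and *OsAKT1*, which are not among the 6. Those qPCR measurements were not examined here, and the values below are from the arrays alone.

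*OsABI5* (LOC_Os01g64000), a bZIP factor of ABA signalling, had 10.39, 10.17 and 9.6 in OE, against 7.01, 8.16 and 6.54 in TNG67. All OE arrays lay above all TNG67 arrays, also within slide 3 by 2.01, and the difference was 2.82 on the log2 scale (SE 0.49, adjusted p = 0.00829). *OsNAC006* (LOC_Os01g09550), a NAC transcription factor, was the one regulator of this list that was lower in OE, with 8.2, 8.4 and 8.26 in OE, against 9.66, 9.39 and 9.56 in TNG67 (log2 fold change -1.25, SE 0.18, adjusted p = 0.00311). With slide as a term of the fit neither passed, at 1.71 and -0.99, and over the 23 alternatives each passed in 20.

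The other 4 did not pass with all arrays, and all 4 passed without TNG67 replicate 2. *OsSRO1c* (LOC_Os03g12820), a protein of the oxidative stress response, had 15.4, 14.74 and 15.38 in OE, against 12.3, 14.85 and 12.29 in TNG67 (log2 fold change 2.03, SE 0.61, adjusted p = 0.077). TNG67 replicate 2 thus read as high as the OE arrays, whereas replicates 1 and 3 were about 3 log2 units lower. *OsHOX24* (LOC_Os02g43330), a homeodomain-leucine zipper factor, had 12.8, 12.32 and 12.62 in OE, against 10.33, 12.69 and 10.29 in TNG67 (log2 fold change 1.48, SE 0.63, adjusted p = 0.198). *OsMAIF1* (LOC_Os02g44990), an F-box protein gene, had 7.21, 6.66 and 6.85 in OE, against 4.92, 7.09 and 5.32 in TNG67 (log2 fold change 1.13, SE 0.48, adjusted p = 0.194).

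These 3 genes were slightly lower in OE within slide 3, by -0.11, -0.37 and -0.43 in the order given. Without TNG67 replicate 2 they passed, with log2 fold changes of 2.88, 2.27 and 1.78 and adjusted p of 0.00163, 0.0125 and 0.00505, and in none of the other 22 alternatives did any of them pass. *OsHKT1.1* (LOC_Os04g51820), a Na+ carrier, had 7.21, 7.13 and 7.15 in OE, against 6.49, 6.9 and 5.84 in TNG67 (log2 fold change 0.76, SE 0.25, adjusted p = 0.104). Its OE arrays were all above its TNG67 arrays, by 0.23 within slide 3, and without TNG67 replicate 2 it passed at a log2 fold change of 1 (adjusted p = 0.019).

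**Figure D3:**
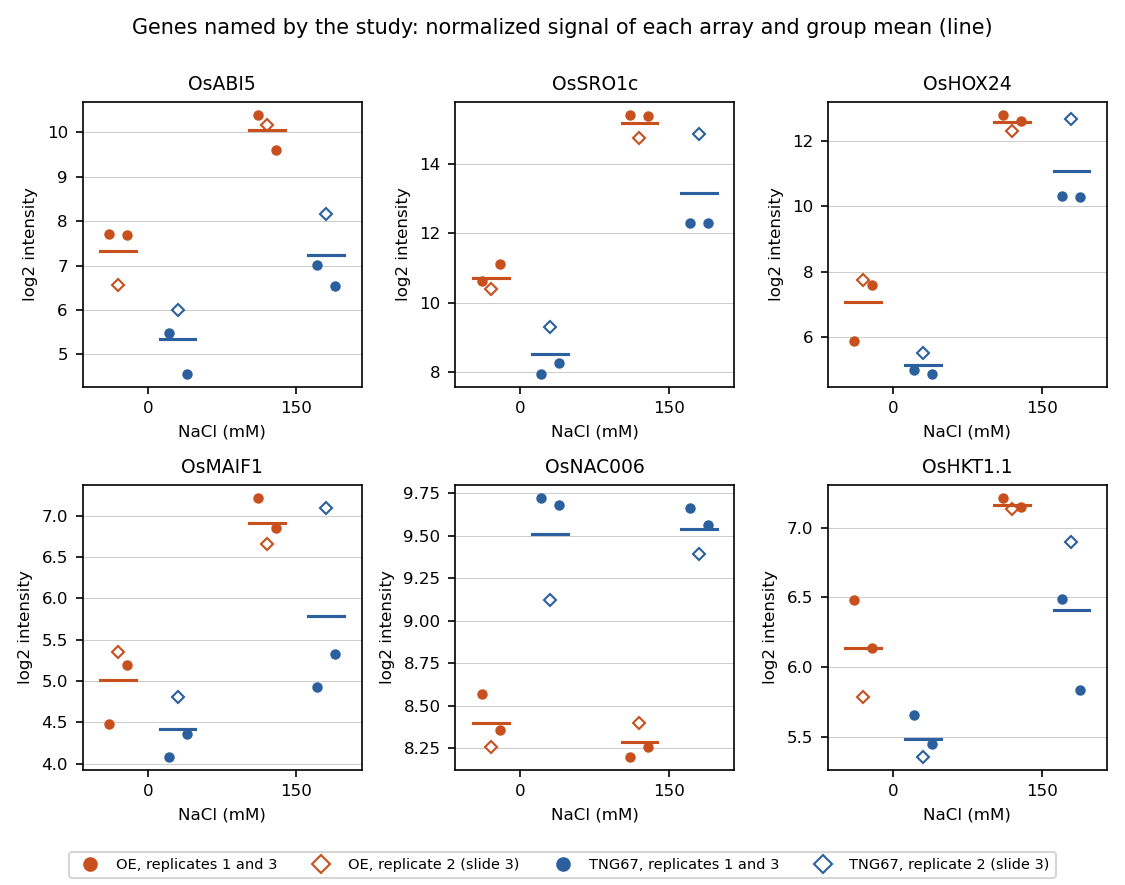
Normalized signal (y axis, log2 intensity) of each array for the 6 genes named by the study, at 0 and 150 mM NaCl (x axis). Orange is OE and blue is TNG67, lines are group means of 3 arrays and open diamonds are replicate 2, which at 150 mM NaCl reads in TNG67 close to OE for *OsSRO1c*, *OsHOX24* and *OsMAIF1*.

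The same genotypes were compared at 0 mM NaCl, where 4.36% of the tested probes passed. The 0 mM arrays were laid out on the slides in the same way, so passing at both levels is no independent repeat. Of the 717 probes upregulated at 150 mM NaCl, 354 also passed as upregulated at 0 mM and 2 as downregulated, and of the 527 downregulated probes 215 passed as downregulated and 2 as upregulated. The 361 upregulated probes that did not pass at 0 mM NaCl had a median log2 fold change of 1.41 at 150 mM and of 0.58 at 0 mM, and the 310 such downregulated probes had -1.24 and -0.68. A probe that passed at only one NaCl level is not thereby shown to differ between levels, which the interaction tests.

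The OE effect at 150 mM minus that at 0 mM NaCl, the interaction, passed the same thresholds for 35 probes (0.0942% of those tested), and 1003 probes had an unadjusted p under 0.05 and an interaction over 2-fold. With the replicate number as a block 64 probes passed, with slide as a fixed term 217 and with slide as a random block 291, and with replicates 1 and 3 averaged none did, where 684 had an unadjusted p under 0.05 and a difference over 2-fold. Every slide holds both NaCl levels, so a constant difference between slides cancels in this contrast. Of the 35 probes, 18 had also passed at 150 mM NaCl, 14 of them as upregulated in OE, and 8 of the 18 carried a locus. The OE effect was larger at 150 mM for 8 of the 18 and larger at 0 mM for 10, and for 7 it had opposite signs at the 2 levels.

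LOC_Os11g40530 had the largest fitted interaction among named loci that passed at 150 mM NaCl. Without NaCl it had 6.24, 5.03 and 5.25 in OE, against 4.65, 4.22 and 4.28 in TNG67. It was well above background on all 3 OE arrays at each NaCl level, and NaCl raised it there by 4.08 on the log2 scale. In TNG67 it was well above background on 0 of the 3 arrays at either level, so neither its change with NaCl there nor the exact size of the interaction was measured. The fitted interaction, which takes the TNG67 signals as they stand, was 4.53 (SE 0.48, adjusted p = 0.0113), and within slide 3 it was 4.39.

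LOC_Os04g41620 ran the other way. At 0 mM NaCl it had 11.53, 11.7 and 11.74 in OE, against 6.66, 5.95 and 6.16 in TNG67, a log2 difference of 5.4. At 150 mM NaCl it had 13.3, 13.06 and 12.94 in OE, against 12.27, 11.55 and 12.32 in TNG67, a log2 difference of 1.05 (adjusted p = 0.0256). OE shoots without NaCl thus had this transcript at a level close to that of NaCl-treated TNG67 shoots, and the interaction was -4.35 (SE 0.33, adjusted p = 0.0011). Without TNG67 replicate 2 the difference at 150 mM NaCl was no longer over 2-fold, at 0.8, and without TNG67 replicate 1, OE replicate 1 or OE replicate 3 it did not pass either.

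For LOC_Os04g33920 the genotypes changed places. At 0 mM NaCl it had 6.51, 6.33 and 6.94 in OE, against 5.33, 5.11 and 4.03 in TNG67, and at 150 mM NaCl 10.41, 9.99 and 10.67 in OE, against 12.39, 12.7 and 12.08 in TNG67. It was well above background on 2 of the 3 untreated TNG67 arrays and on all others. The log2 differences were 1.78 at 0 mM and -2.04 at 150 mM, and the interaction was -3.81 (SE 0.47, adjusted p = 0.0204). NaCl raised it in both genotypes, by 3.76 in OE and by 7.57 in TNG67. LOC_Os01g58280 changed places in the other sense, with 5.71, 5.81 and 6.05 in OE, against 7.96, 8.63 and 8.46 in TNG67 at 0 mM NaCl, and 7.23, 8.14 and 8.14 in OE, against 6.9, 7.04 and 6.45 in TNG67 at 150 mM. Its interaction was 3.53 (SE 0.38, adjusted p = 0.0113), while its difference at 150 mM NaCl, 1.04 (adjusted p = 0.0471), was just past the thresholds and failed under 16 of 23 alternatives.

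**Figure D4:**
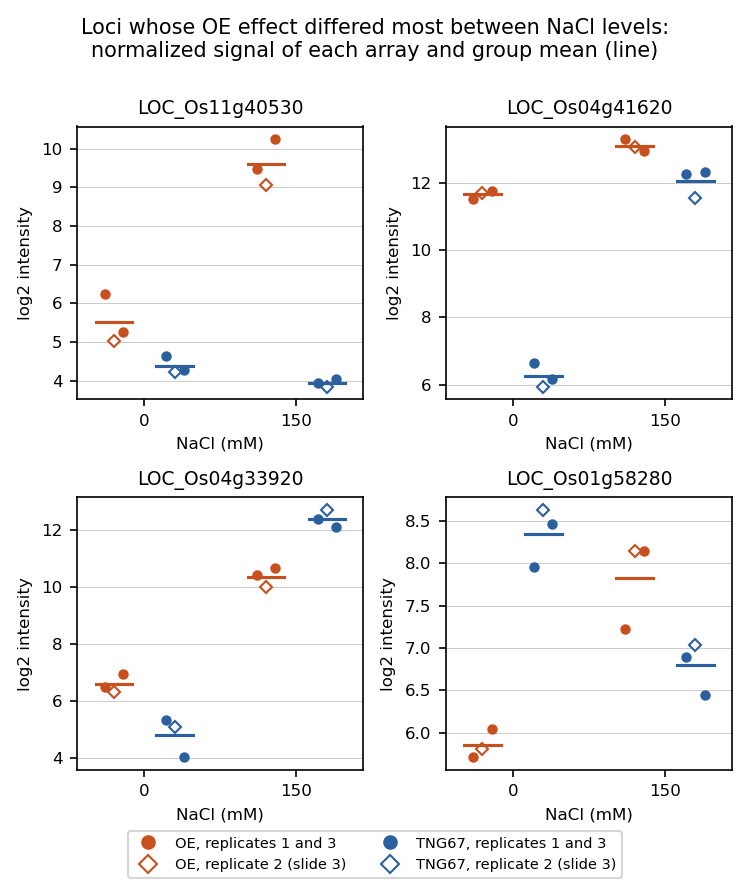
Normalized signal (y axis, log2 intensity) of each array at 0 and 150 mM NaCl (x axis) for 4 named loci. Among the loci that passed at 150 mM NaCl, these were the ones whose OE effect differed most between NaCl levels. Orange is OE and blue is TNG67, lines are group means of 3 arrays and open diamonds are replicate 2, and LOC_Os11g40530 was not well above background in TNG67 at either level.

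Some of the loci that passed lie next to each other by locus number. Among the 551, 14 runs of at least 3 loci had numbers no more than 100 apart, and they held 44 loci. In 2 runs all members were higher in OE, in 2 all were lower, and 10 were mixed. The named loci are themselves genes the study listed as changed, so runs are not set against all genes. At LOC_Os04g53780, LOC_Os04g53800 and LOC_Os04g53810 the log2 fold changes were -1.87, -2.01 and -2.47 (adjusted p = 0.000992, 0.00688 and 0.000209), and within slide 3 they were -1.42, -1.98 and -2.17. LOC_Os04g53810 had 7.93, 7.97 and 7.75 in OE, against 10.54, 10.14 and 10.39 in TNG67. LOC_Os03g52370, LOC_Os03g52380 and LOC_Os03g52390 were higher in OE by 1.71, 1.16 and 2.24 (adjusted p = 0.0114, 0.0217 and 0.00688), with LOC_Os03g52390 at 14.24, 13.22 and 12.37 in OE, against 11.16, 11.03 and 10.93 in TNG67. Another run, LOC_Os04g34490, LOC_Os04g34530 and LOC_Os04g34600, was lower in OE by -1.56, -1.04 and -1.33 (adjusted p = 0.000944, 0.0363 and 0.0193). With slide as a term of the fit, LOC_Os03g52370 (1.42, adjusted p = 0.128), LOC_Os03g52380 (0.6, adjusted p = 0.174), LOC_Os03g52390 (2.02, adjusted p = 0.0864) and LOC_Os04g53800 (-1.52, adjusted p = 0.101) did not pass. Several of these calls also rest on single arrays. LOC_Os03g52370 was lost without OE replicate 1, LOC_Os03g52380 without any one of replicates 1 and 3 of either genotype, LOC_Os04g34600 without TNG67 replicate 1, OE replicate 1 or OE replicate 3, and LOC_Os04g34530 in 6 of the 12 fits that left out an array.

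A longer stretch in a single direction on chromosome 4, from LOC_Os04g02490 to LOC_Os04g03100, was singled out after its values were seen. It held 10 named loci with a tested probe, all with a higher mean in OE at 150 mM NaCl and higher in OE within slide 3, and 8 of them passed, all as higher in OE. Of all tested probes 1.93% passed as higher, and of those with a locus, which the study listed as changed, 22% did. Their median log2 fold change was 1.66 over all arrays and 1.62 within slide 3. Beside LOC_Os04g02490, the clearest was LOC_Os04g03100, with 7.52, 7.23 and 7.35 in OE, against 5.46, 5.37 and 5.82 in TNG67 (log2 fold change 1.82, SE 0.21, adjusted p = 0.000966). LOC_Os04g02530 had 10.31, 10.32 and 10.26 in OE, against 8.41, 9.05 and 8.84 in TNG67 (log2 fold change 1.53, adjusted p = 0.00424), and LOC_Os04g02754 had 12.3, 12.14 and 12.16 in OE, against 11.13, 10.1 and 10.96 in TNG67 (log2 fold change 1.47, adjusted p = 0.0049). The OE arrays of these 3 genes lay close together, and none of them overlapped TNG67.

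LOC_Os04g02970 and LOC_Os04g02980 were higher by 1.91 and 1.79 (adjusted p = 0.011 and 0.0111). LOC_Os04g02640, at 2.02, and LOC_Os04g02880, at 1.4, passed narrowly (adjusted p = 0.0453 and 0.0463) and were lost in 9 and 11 of the 12 fits that left out an array. LOC_Os04g02980 was lost without OE replicate 1. With the replicate number as a block, LOC_Os04g02640 lost its call and LOC_Os04g02900 gained it. LOC_Os04g02900, at 1.01 (adjusted p = 0.0727), and LOC_Os04g02690, at 0.93 (adjusted p = 0.133), did not pass. At LOC_Os04g02880 the 2 slide 3 arrays were nearly equal, with 12.61 in OE and 12.41 in TNG67. At 0 mM NaCl 8 of the 10 loci also passed, and 9 were higher in OE. With slide as a term of the fit 6 of the 10 passed, and without TNG67 replicate 2 there were 9.

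**Figure D5:**
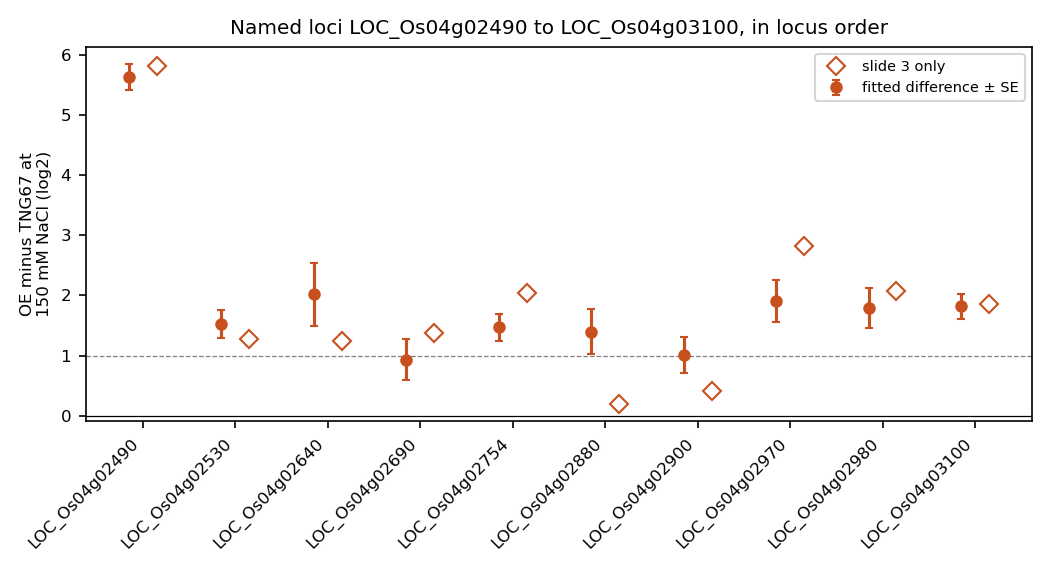
OE minus TNG67 at 150 mM NaCl (y axis, log2) for the 10 named loci from LOC_Os04g02490 to LOC_Os04g03100 (x axis, in locus order). Filled points are fitted differences with their SE, open diamonds are the difference within slide 3, the dashed line is a 2-fold change, and all 10 points of both kinds lie above 0.

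The array also carried 510 probes named for miRNA sequences, of which 207 were tested. None passed at 150 mM NaCl with limma, 20 (9.66%) had an unadjusted p under 0.05, and none passed the methods' t-test, where 11 had an unadjusted p under 0.05. Among the 36903 tested gene probes, 1243 (3.37%) passed and 22.4% had an unadjusted p under 0.05. With 3 arrays a group, small differences of these probes may have been missed.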

How the data were processed

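Rice shoots were measured on 12 single-dye (Cy3) Agilent arrays, 3 in each of 4 groups, with groups and replicate numbers taken from the titles. The authors deposited Agilent Feature Extraction 10.7.1.1 output, which gives the median signal, local background and processed signal of each spot as an intensity, with the scanner's flags. They also deposited log2 normalized values, which equal the log2 processed signal less a constant per array and per probe, to within 0.01 for 100% of the probes, with column medians between -0.09 and 0.06. That centring leaves their absolute level unknown.

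Analysis used R 4.3.3 and limma 3.58.1. Median signals were background-corrected with normexp (offset 0), 1417 control spots were dropped, 28 to 57 outlier spots an array were set to missing, arrays were quantile-normalized and spots averaged per probe. No spot was saturated. The median spot signal was 315.5 to 814.5 over a background of 44 to 50 units, and well above background were 79.3% to 88% of each array's probes (those with at least 50% of their spots). The 5333 probes that reached this on fewer than 3 arrays were not tested. Group means were fitted over all 12 arrays (lmFit, eBayes). Passing meant an absolute log2 fold change above 1 with an adjusted p (Benjamini-Hochberg, over all tested probes) under 0.05. Deviations of same-numbered arrays from their group means correlated between genotypes by 0.172, 0.336 and 0.197 for replicates 1, 2 and 3, all over 0.1. The main fit has no term for the replicate number, so its values are unpaired. A fit with that number as a block was run as an alternative and is quoted where a call differs. Replicate 2 of each group is on slide 3, so number and slide cannot be told apart.

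Loci came from the study's Data S1 by probe name (1182 loci, part of that table) or, for 327 loci of Data S2, from the single probe whose difference in the deposited values lay within 0.0001 of the listed one. Where Data S1 gave the answer, this rule found 286 right and 3 wrong probes. Of the loci named above, this rule placed LOC_Os11g40530, LOC_Os07g26100, LOC_Os05g41050, LOC_Os07g32710, LOC_Os06g15430, LOC_Os11g42430, LOC_Os07g48010, LOC_Os07g34260, LOC_Os07g48020, LOC_Os07g35940, LOC_Os05g25770, LOC_Os09g19229, LOC_Os10g36160 and LOC_Os10g05490. The authors' fold changes and p-values in those tables were used for nothing else. The study's primer list prints the locus of another gene for *OsSRO1c*, so the locus used is that of its published description.

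Named were the 10 loci that increased and the 10 that decreased most among those with separated arrays and the same direction within slide 3, the genes the study names, the 4 loci with the largest interaction, the most changed probe without a locus in each direction, 4 loci per genotype measured in that genotype only and, chosen after their values were seen, the neighbouring loci. Members and lists were chosen with earlier results of these data known. Other planned gene lists were dropped, because the tables used pair loci with no product names. The fit was tested on simulated data. Alternatives were another offset, the processed signal shifted to its 75th percentile, the authors' values, 2 other filters, slide or replicate number as a term, fits on fewer arrays, replicates 1 and 3 averaged, the Student's t-test that the Methods name, and each array left out.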

Additional observations from a re-analysis of the deposited data

Results flagged for a closer look

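The effect of *OsERF106MZ* overexpression differed between 150 and 0 mM NaCl, by the test of the interaction, for 35 probes. Among the loci named above, it differed at LOC_Os11g40530 (4.53), LOC_Os04g41620 (-4.35), LOC_Os04g33920 (-3.81) and LOC_Os01g58280 (3.53, all log2). At LOC_Os11g40530 no TNG67 array was well above background at either level, so its value is a fitted one and not a measured size. On slide 3 alone these interactions were 4.39, -4.24, -3.94 and 3.91. LOC_Os04g41620 passed in 20 of 21 alternatives, LOC_Os01g58280 in 19 of 21, LOC_Os11g40530 in 16 of 20 and LOC_Os04g33920 in 13 of 21, and none of the 4 passed with replicates 1 and 3 averaged (adjusted p = 0.258, the highest over the alternatives). Without replicate 3 of untreated OE, the interaction passed for 3 probes in all, and LOC_Os11g40530, LOC_Os04g33920 and LOC_Os01g58280 were not among those that passed.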

How the results depend on the processing

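Against the 1244 probes that passed at 150 mM NaCl (717 up and 527 down in OE), 638 (360 and 278) passed with the 6 NaCl-treated arrays alone, 74 (56 and 18) with replicates 1 and 3 averaged and 11 (8 and 3) with the methods' t-test, which use fewer arrays or a spread estimated per probe. With slide as a fixed term there were 840, of which 416 were up and 424 down, so that the larger direction changed, and 559 of the 1244 remained. With each array left out the count was between 689 and 2605, up between 377 and 1475 and down between 312 and 1130, and 542 of the 1244 (43.6%) passed each time. The interaction count of 35 was 217 with slide as a fixed term, 291 with slide as a random block, 64 with the replicate block, 0 with replicates 1 and 3 averaged and between 3 and 114 with single arrays left out. Of the 6 genes named by the study, 2 passed, against 0 with slide as a fixed term, with replicates 1 and 3 averaged or with the methods' t-test, and between 2 and 6 with single arrays left out. For the named genes, 1010 of 1203 values kept their direction and their side of the threshold, 180 no longer passed, 13 newly passed and 0 changed direction. With the replicate block 1579 probes passed at 150 mM NaCl, 1235 of the 1244 among them, and beside the interaction and the 2 loci of chromosome 4 given above it changed no other call among the results named. Signal near background limits the folds of transcripts read in a single genotype.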
